A study of Mus musculus with 3 samples.

Results

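Neuropilins, semaphorins and plexins form a ligand and receptor system, and 10 of its genes were followed here in mouse regulatory T (Treg) cells, a Foxp3-dependent kind of CD4 T cell that restrains other immune cells. They are the neuropilins Nrp1 and Nrp2, the semaphorins Sema4a, Sema4b, Sema4d and Sema7a, and the plexins Plxna1, Plxnb2, Plxnc1 and Plxnd1. The 10 genes were taken by name from the 22457 genes of the count tables. The whole family, all neuropilin, semaphorin and plexin genes, has 31 members in these tables. The primary cells were labelled as adult, male and 4 months of age, and their poly(A) RNA was sequenced in 3 libraries. Per the labels these are technical replicates 1, 2 and 3 of 1 biological replicate, named library 1, 2 and 3 below. The libraries form 1 group with no treatment, genotype or other condition to compare. Neither the sort that gave the cells nor the strain nor any pooling of animals is given in the sources used here. An SD or p-value over these libraries therefore measures only the spread between libraries of 1 sample, not between animals.

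Semaphorins are secreted or membrane-bound ligands, first known for steering growing axons and later found on immune cells. Plexins are their main receptors and act on small GTPases and the cytoskeleton through a cytoplasmic GTPase-activating domain. Neuropilins lack such a domain and serve as coreceptors, for class 3 semaphorins together with plexins and for vascular endothelial growth factor (VEGF) together with its kinase receptors. In mice, Nrp1 is widely used as a marker of Treg cells that arose in the thymus, and Sema4a on other cells has been described as a ligand that engages Nrp1 on Treg cells and restrains Akt.

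The libraries held 3316275, 3079004 and 2782259 counts. Levels are in CPM, a gene's count divided by its library's total and multiplied by 1e6, and comparisons between genes use CPM per 1000 bases of coding sequence. Genes with the most counts per coding base did not scale with library size, as described below. What this does to ratios between genes with many and with few counts per base was not tested, so such ratios describe counts only. At these depths 3 counts, taken as the limit that a count of 0 allows, correspond to 0.905, 0.974 and 1.08 CPM. Intervals and limits cover counting error only. The 6 Treg and T cell markers fitted the label: all were at 1 CPM or more in every library, with Foxp3 at 142 ± 6.17 CPM (SD, n = 3) and summed levels of 2155, 2148 and 2211 CPM in libraries 1, 2 and 3. The CD8 marker Cd8a had 0, 0 and 1 counts. Markers of other cells were low but uneven. B cell markers summed to 70.9, 165 and 192 CPM with 8 of 9 detected, and plasma cell markers to 6.63, 30.5 and 77.3 CPM with 2 of 4 detected. Monocyte and macrophage markers summed to 20.8, 67.6 and 30.9 CPM with 3 of 10 detected. The remaining marker lists summed to at most 15.6 CPM in any library. These are bulk libraries, in which fewer cells of a type and less RNA per cell cannot be told apart.

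Of the neuropilins, Nrp1 was abundant and Nrp2 was not seen. Nrp1 (ENSMUSG00000025810, chr8:128358604-128503363 on the plus strand of GRCm38), with 17 exons in its longest coding transcript, had 2189, 2061 and 1616 counts in libraries 1, 2 and 3. These correspond to 660.1, 669 and 581 CPM, with exact 95% Poisson intervals of 633 to 688, 641 to 699 and 553 to 609.8 CPM. The mean was 637 ± 48.7 CPM (SD, n = 3). Library 3 lay below the other libraries, and its interval did not meet theirs. Nrp2 (ENSMUSG00000025969, chr1:62703285-62818695, plus strand), the paralog best known as a coreceptor in lymphatic endothelium and neurons, had 0 counts in every library. The coding sequences are of nearly the same length, 2769 bases for Nrp1 and 2793 for Nrp2, and neither shares a stretch of 31 bases with another gene's transcripts. Against a limit of 3 counts per library, Nrp1 counts were at least 729.7-fold higher than Nrp2 counts in library 1, at least 687-fold in library 2 and at least 539-fold in library 3. Nrp1 thus made up 100% of neuropilin counts in each library, with a lower exact 95% binomial (Clopper-Pearson) bound of 99.8% in each. Endothelial markers, from a cell type rich in Nrp1, summed to 2.11, 1.95 and 3.95 CPM, with 0 of 7 detected and Tek, Tie1 and Emcn at 0 counts. Per coding base, Nrp1 stood at 2.27, 2.14 and 1.85 times the level of Foxp3 in the same libraries.

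**Figure D1:**
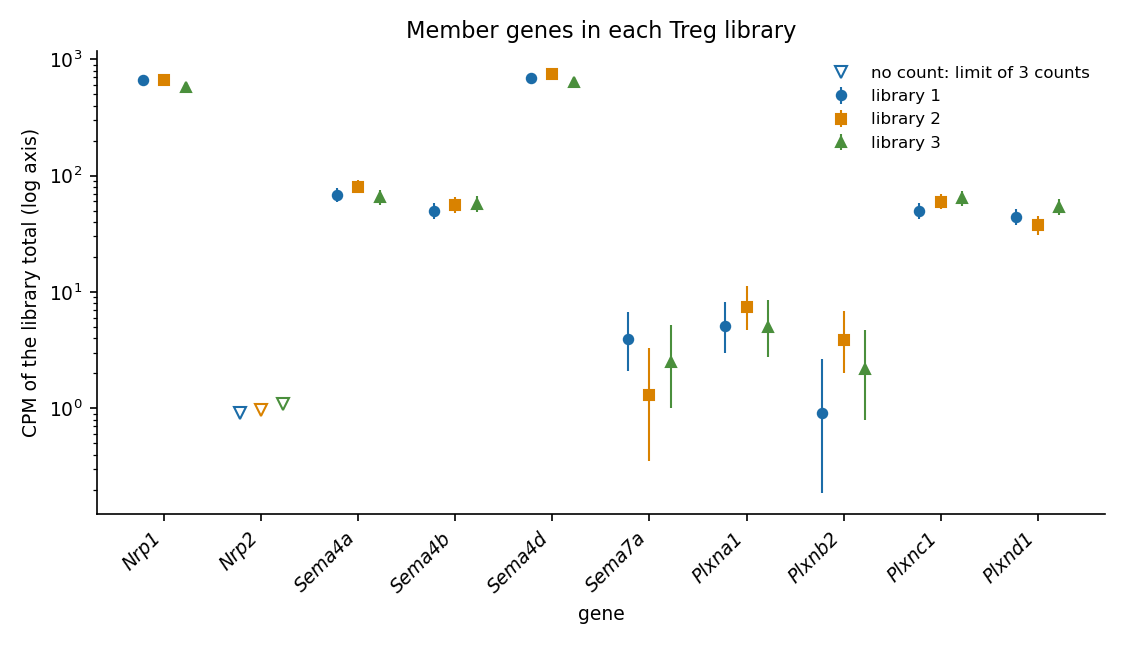
Level of each of the 10 genes in libraries 1, 2 and 3, in CPM on a log axis. Points are single libraries, bars are exact 95% Poisson intervals, and open triangles mark the limit of 3 counts for Nrp2, which had no count. Nrp1 and Sema4d lie between 581 and 749 CPM, 4 genes lie between 37.3 and 80.5 CPM, and Sema7a, Plxna1 and Plxnb2 stay under 10 CPM.

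Among the semaphorins, Sema4d stood far above the rest. Sema4d (chr13:51685529-51793747, minus strand), also called CD100, is a transmembrane semaphorin of lymphocytes that is shed from the surface by proteases. It had 2288, 2305 and 1779 counts, or 689.9, 749 and 639 CPM, in libraries 1, 2 and 3, with a mean of 693 ± 54.7 CPM (SD, n = 3). Library 2 was highest and library 3 lowest, and the interval of library 3, 610.04 to 669.8 CPM, did not meet that of library 2, 718 to 779.8 CPM. Sema4d made up 79.9%, 79.9% and 81.0% of all semaphorin counts, with exact 95% binomial intervals of 78.4 to 81.4, 78.4 to 81.3 and 79.3 to 82.7%. The intervals of this share overlapped between all 3 libraries. Sema4d is itself most of the semaphorin counts, so the share responds little to the Sema4d level and the overlap says nothing of stability.

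Sema4a (chr3:88435959-88461182, minus strand), the transmembrane semaphorin described as a ligand of Nrp1, had 227, 248 and 182 counts, or 68.5, 80.5 and 65.4 CPM, with a mean of 71.5 ± 8.005 CPM (SD, n = 3). Library 2 was highest, and its interval overlapped those of the other libraries. Per coding base, Sema4d was at 8.90, 8.20 and 8.63 times the level of Sema4a in libraries 1, 2 and 3. Sema4b (chr7:80186841-80226527, plus strand), another transmembrane member of class 4, had 164, 172 and 159 counts, or 49.5, 55.9 and 57.1 CPM, with overlapping intervals in all libraries. The class 4 genes together held 95.5%, 96.4% and 97.7% of semaphorin counts. Sema7a (chr9:57940112-57962865, plus strand), which is tethered to the membrane by a lipid anchor and binds integrins and plexin C1, was near the limit of detection. It had 13, 4 and 7 counts, or 3.92, 1.30 and 2.52 CPM, highest in library 1 and lowest in library 2.

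The plexins were lower, and Plxnc1 and Plxnd1 carried most of their counts. Plxnc1 (chr10:94790866-94944835, minus strand), the receptor of Sema7a, had 165, 184 and 178 counts, or 49.8, 59.8 and 64.0 CPM, with a mean of 57.8 ± 7.30 CPM (SD, n = 3). Plxnd1 (chr6:115954811-115995005, minus strand), the receptor of Sema3e and known from thymocytes and blood vessels, had 147, 115 and 150 counts, or 44.3, 37.3 and 53.9 CPM, with a mean of 45.2 ± 8.32 CPM (SD, n = 3). Library 3 was highest for both genes, while the lowest was library 1 for Plxnc1 and library 2 for Plxnd1. Together they held 80.2%, 78.3% and 83.7% of plexin counts, with overlapping binomial intervals. The Plxnc1 level per coding base was 1.37, 1.96 and 1.45 times that of Plxnd1 within the same libraries.

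Plxna1 and Plxnb2 were low. Plxna1 (chr6:89316314-89362620, minus strand), a partner of neuropilins in class 3 semaphorin receptors and a gene of dendritic cells, had 17, 23 and 14 counts, or 5.13, 7.47 and 5.03 CPM. Of its coding 31-mers 12.2% occur in transcripts of other genes, and an antisense gene overlaps one of its exons, so its counts are uncertain where the authors' counting could split or add reads. Plxnb2 (chr15:89155549-89180788, minus strand), a receptor of class 4 semaphorins known from epithelia, neural progenitors and macrophages, had 3, 12 and 6 counts, or 0.905, 3.90 and 2.16 CPM, and so missed 1 CPM in library 1. Library 1 was lowest and library 2 highest for Plxnb2, but its Poisson intervals overlapped between all libraries. The monocyte and macrophage markers had 69, 208 and 86 counts in the same libraries, the same order, and the dendritic cell markers 14, 48 and 23. Plasmacytoid dendritic cell markers (18, 46 and 23), neutrophil markers (0, 16 and 7) and NK cell markers (4, 6 and 5) also had that order. B cell, plasma cell, endothelial and platelet markers did not. The order thus singles out no cell type, and the part of any of these cells in the Plxnb2 counts was not tested.

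In all, 8 of the 10 genes were at 1 CPM or more in every library, with a median over the 10 of 49.7 CPM, beside 47.3% of all genes and a median of 1.08 CPM over all genes. Per coding base, the order was Sema4d, Nrp1, Sema4a, Sema4b, Plxnc1, Plxnd1, Sema7a, Plxna1, Plxnb2 and Nrp2. Sema4d had 268 ± 21.2 CPM per 1000 coding bases and Nrp1 229.96 ± 17.6, above 96.8% and 95.9% of coding genes. The next gene, Sema4a, had 31.3 ± 3.51 CPM per 1000 coding bases, so that Nrp1 exceeded it 7.34-fold. Sema4b had 21.9 ± 1.67, Plxnc1 12.2 ± 1.55 and Plxnd1 7.83 ± 1.44 CPM per 1000 coding bases. A further gap of 6.05-fold led to Sema7a at 1.29 ± 0.658, followed by Plxna1 at 1.03 ± 0.243 and Plxnb2 at 0.420 ± 0.272 CPM per 1000 coding bases (SD, n = 3 throughout). The Plxnb2 mean rests on few counts: it was 2.32 ± 1.503 CPM over the 3 libraries and 1.53 CPM without library 2.

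Of the 9 pairs of neighbours in that order, 8 had ranges over the 3 libraries that did not overlap. The exception was Sema7a and Plxna1, which do not differ beyond their spread and change places without library 1. Plxnb2 in library 1, at exactly 3 counts, cannot be told from Nrp2 at this depth. Sema4d and Nrp1 were close, with ranges of 248 to 289.8 and 209.8 to 242 CPM per 1000 coding bases, and these ranges overlapped when libraries were scaled by TMM or by median-of-ratios size factors. Within each library Nrp1 was nevertheless the lower gene per coding base, at 0.892, 0.834 and 0.847 times Sema4d. When whole exon length with untranslated regions was used in place of coding length, the order was the same and the ranges of Plxnc1 and Plxnd1 overlapped as well. Summed by role, the 4 semaphorins had 322.7 ± 24.1 CPM per 1000 coding bases and the 4 plexins 21.5 ± 2.46 (SD, n = 3).

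**Figure D2:**
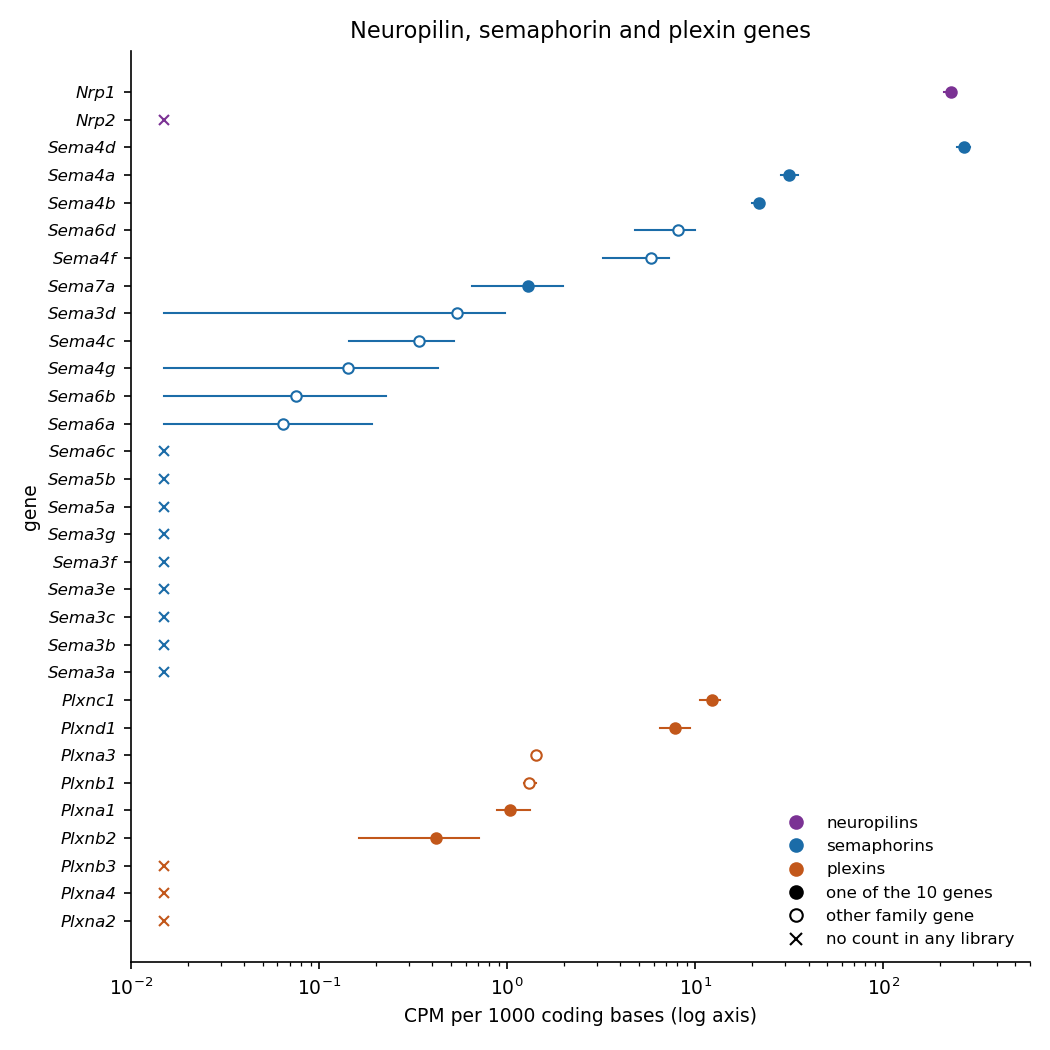
Level of all 31 neuropilin, semaphorin and plexin genes per coding length, in CPM per 1000 coding bases on a log axis. Dots are means and lines the range over the 3 libraries (a line reaching the left edge marks a library with no count), filled dots are the 10 genes, open dots the other family genes, and crosses genes with no count. Sema4d and Nrp1 stand apart on the right, at 268 and 229.96.

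The spread between libraries was compared for each gene by a chi-square test of its counts against the library totals, with Benjamini-Hochberg adjustment over 10043 genes with 30 or more summed counts. This test allows for counting noise alone. Of the 10 genes 7 could be tested, and 3 of them differed between libraries, beside 22.7% of all genes tested. These 3 were Nrp1 (adjusted p = 0.000388, chi-square test), Sema4d (adjusted p = 7.59e-05) and Plxnd1 (adjusted p = 0.0498). The share of genes that differ grows with the count: it was 60.3% among genes with 3000 or more summed counts, where Nrp1 and Sema4d fall, and 17.3% among those with 100 to 1000, where Plxnd1 falls. Read against those shares, 3 of 7 is no result about these genes. Sema4a, Plxnc1, Sema4b and Plxna1 did not pass, with adjusted p of 0.179, 0.157, 0.538 and 0.538 by the same test. Nrp2, Sema7a and Plxnb2 had too few counts for it.

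Nrp1 and Sema4d were both lower in library 3, at 0.874 and 0.889 times the mean of libraries 1 and 2. The median of that ratio was 1.03 over 2915 genes of similar count density (0.2 to 1 counts per coding base), of which the central 80% ran from 0.854 to 1.16. Among the 97 genes with 1.8 or more counts per coding base, that ratio had a median of 1.13 and 68.0% differed between libraries, so counts of the densest genes did not scale with library size. The median was 0.995 over genes under 0.2 counts per coding base and 1.09 over the 394 genes with 1 to 1.8, so it rose with density. Ratios between genes of unlike density, such as Sema4d (0.822 counts per coding base) over Sema4a (0.0961), could be affected, which was not tested. Nrp1 and Sema4d, at 0.706 and 0.822 counts per coding base, fall in the class with a median of 1.03. Plxnd1 went the other way, with library 3 at 1.32 times the mean of libraries 1 and 2. Without library 3, the chi-square test gave adjusted p of 0.839 for Nrp1, 0.0566 for Sema4d and 0.444 for Plxnd1, so all 3 calls ended. Without library 2, the adjusted p was 0.0842 for Sema4d and 0.261 for Plxnd1, while Nrp1 still passed at 0.00189. Plxnd1 also missed the threshold with TMM scaling, at an adjusted p of 0.0847. When each library was set against the other 2 with the quasi-likelihood test of edgeR, whose noise term includes spread between libraries, 0 of the 7 genes passed, beside 0.438% of all genes tested. That test has 1 library in an arm, assumed to vary like the others, and 1 residual degree of freedom. DESeq2 was run in the same way, with the same limit. In libraries 1, 2 and 3, B cell markers summed to 70.9, 165 and 192 CPM. Plasma cell markers summed to 6.63, 30.5 and 77.3 CPM. The part of those cells in the spread was not tested.

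**Figure D3:**
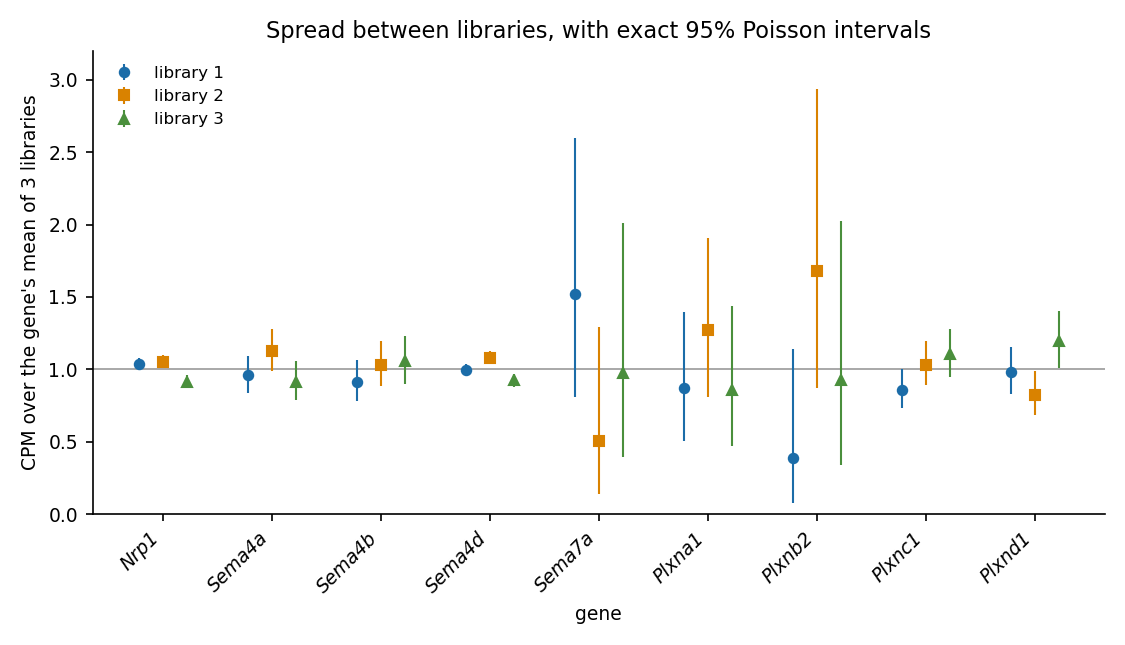
Level of each of the 9 genes with counts in libraries 1, 2 and 3, divided by the gene's own mean over the libraries. Nrp1 and Sema4d are lowest in library 3, with a ratio of highest to lowest library of 1.15 and 1.17, while Plxnb2 and Sema7a, with few counts, spread by 4.31 and 3.02 times.

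The other 21 genes of the family were mostly absent. Of these, 4 were detected in every library. Sema6d, a class 6 transmembrane semaphorin that signals through plexin A receptors, had 106, 94 and 43 counts, with a mean of 26.0 ± 9.15 CPM. Sema4f had 53, 52 and 21 counts, with a mean of 13.5 ± 5.15 CPM (SD, n = 3 each). Both were lowest in library 3 and differed between libraries by the chi-square test over all genes (adjusted p = 0.00134 for Sema6d and 0.0219 for Sema4f), and neither call held without library 3 (adjusted p = 0.894 and 0.911). Plxna3, a partner of neuropilins, had 27, 24 and 22 counts. Plxnb1, the high-affinity receptor of Sema4d, had 30, 24 and 22 counts, with a mean of 8.25 ± 0.692 CPM, although an antisense gene overlaps it and strand use in counting is not given. Per coding base, Sema4d was at 188, 236 and 199 times the level of Plxnb1 in libraries 1, 2 and 3.

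Secreted class 3 semaphorins, the classical neuropilin ligands, were close to missing. Sema3d had 5, 7 and 0 counts, and Sema3a, Sema3b, Sema3c, Sema3e, Sema3f and Sema3g had none, so that Sema3e, the ligand of Plxnd1, was not seen in these cells at a limit of 3 counts per library. Sema4c had 3, 4 and 1 counts, Sema4g had 0, 0 and 3, and Sema6a and Sema6b each had 2, 0 and 0. The remaining genes with no count were Sema5a, Sema5b, Sema6c, Plxna2, Plxna4 and Plxnb3. With Nrp2, 13 of the 31 family genes had no count in any library, and 12 of 31, or 38.7%, were detected, beside 47.3% of all genes.

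Genes that work with this system were read from 5 lists of 68 genes in all, with a median of 13.9 CPM. Of the 68 genes 47, or 69.1%, were detected, beside 47.3% of all genes. By the chi-square test over all genes, 15 of the 47 differed between libraries (31.9%, beside 22.7% of all genes), and 9, 8 and 6 of the 15 still passed without library 1, 2 and 3. The share of all genes that differ grew from 11.7% at 30 to 100 summed counts to 60.3% at 3000 or more. The partner lists were not matched to all genes by count, so their shares, together or singly, are no result about these genes. Among the other semaphorin receptors, 4 of 10 were detected and 3 differed. Cd72, a B cell receptor for Sema4d, had 235, 186 and 258 counts, or 70.9, 60.4 and 92.7 CPM, highest in library 3 (adjusted p = 0.000418, chi-square test; 0.348 without library 3). The part of B cells, whose markers summed to 70.9, 165 and 192 CPM, in the Cd72 counts was not tested. Sema4d was at 4.08, 5.20 and 2.89 times the level of Cd72 per coding base. Itgb1, the beta 1 integrin chain of the Sema7a receptor, averaged 409 ± 28.6 CPM, while its alpha chain Itga1 had 29, 11 and 7 counts (SD, n = 3). Both differed between libraries (adjusted p = 0.0171 for Itgb1 and 0.00893 for Itga1, chi-square test), and both missed the threshold without library 3 (adjusted p = 0.119 and 0.0770). Itgb1 also missed it without library 2 (adjusted p = 0.520). L1cam, an adhesion molecule that joins neuropilin receptors in neurons, averaged 93.7 ± 11.7 CPM. Timd2, a Sema4a receptor described in mouse, had 2, 3 and 1 counts, Met had 0, 0 and 2, and Cspg4 had none.

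Of the VEGF and TGF-beta genes whose products bind neuropilins, 4 of 13 were detected, and they did not include any VEGF ligand or VEGF receptor. Vegfa and Flt4 had no count, Vegfb had 6, 2 and 7, Vegfc 5, 5 and 1, Kdr had 0, 1 and 1, and Flt1 had 4, 0 and 0. The TGF-beta receptors Tgfbr1 and Tgfbr2 averaged 95.4 ± 12.1 and 55.0 ± 6.63 CPM, and Tgfb1 and Hgf 10.4 ± 0.971 and 10.4 ± 0.371 CPM (SD, n = 3 each). Tgfbr1 differed between libraries (adjusted p = 0.0398, chi-square test), but not without library 1 (adjusted p = 0.119) or library 2 (adjusted p = 0.716).

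On the cytoplasmic side, 28 of 32 adaptors, kinases and GTPase regulators were detected, which is 87.5% beside 47.3% of all genes. Mical1, an enzyme that takes apart actin filaments downstream of plexins, had the most counts of the list, at 433 ± 68.0 CPM (not scaled for length, as for the other partner genes in the text). Sh3bp1, a Rac-inactivating protein bound to plexins, averaged 265 ± 28.7 CPM, and Limk2, a kinase that inhibits cofilin, 227 ± 31.6 CPM. Cfl1, which encodes cofilin itself, averaged 264 ± 22.2 CPM, Rhoa 161 ± 13.97 CPM, the Src family kinase Fyn 151 ± 14.7 CPM and the small GTPase Rap1b, a substrate of plexin GTPase-activating domains, 131 ± 20.5 CPM (SD, n = 3 for each). Gipc1, the adaptor that binds the cytoplasmic tail of Nrp1, averaged 45.9 ± 2.70 CPM. Rnd1, a GTPase that binds plexins, had 14, 8 and 11 counts. Mras had none and Dpysl3 had 1, 0 and 0. The values for Sh3bp1, Rhoa and Cfl1 are uncertain, since 77.8%, 66.3% and 49.9% of their coding 31-mers occur in transcripts of other genes.

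In that list 6 of 28 genes differed between libraries by the chi-square test, which is 21.4% beside 22.7% of all genes. Mical1 had 1417, 1552 and 1025 counts (adjusted p = 4.17e-12) and still passed when each library was left out in turn. Limk2 had 783, 778 and 533 counts (adjusted p = 7.27e-05; 0.462 without library 3), and Rap1b 428, 470 and 311 (0.00116; 0.186 without library 2 and 0.0932 without library 3). Mical1, Limk2 and Rap1b were lowest in library 3 in CPM, as were Nrp1 and Sema4d. Sh3bp1 also passed (0.00103; 0.927 without library 2), as did Arhgef12, a guanine nucleotide exchange factor that binds plexin B receptors (0.0427; 0.588 without library 2 and 0.161 without library 3). Cfl1 had nearly equal counts of 806, 805 and 799, which gives a higher CPM in the smaller library 3. It passed the chi-square test (adjusted p = 0.0215), but not without library 1 (0.210) or library 3 (0.409). In CPM, library 3 was at 1.14 times the mean of libraries 1 and 2. Cfl1 has 1.18 counts per coding base, and genes with 1 to 1.8 had a median of 1.09 for that ratio. The call is therefore no result about Cfl1 itself, and whether it departs from genes of like density was not tested. With TMM scaling, Cfl1 and Arhgef12 did not pass (adjusted p = 0.0944 and 0.0597, chi-square test).

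Of the Akt and Foxo genes, on the route described downstream of Nrp1 in mouse Treg cells, each named here was detected. Foxo1 averaged 95.6 ± 4.84 CPM, Mtor 72.6 ± 4.28, Akt1 50.2 ± 6.58, Akt2 49.7 ± 9.58 and Foxo3 3.52 ± 1.07 CPM (SD, n = 3 each). Akt2, with 68.0% of its coding 31-mers shared with other genes, had 135, 184 and 135 counts and was highest in library 2 (adjusted p = 0.0179, chi-square test; 0.222 without library 1 and 0.349 without library 2).

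Proteases that cut semaphorins or neuropilins were detected in 4 of 6 cases. The membrane proteases Adam10 and Adam17 averaged 249 ± 30.3 and 238 ± 28.3 CPM, the proprotein convertase Furin 40.0 ± 6.73 CPM and the gelatinase Mmp9 24.6 ± 8.02 CPM (SD, n = 3 each). Adam10 had 936, 750 and 619 counts and Adam17 889, 717 and 590, so both were highest in library 1 (adjusted p = 0.000241 and 0.000544, chi-square test), and neither passed without library 1 (0.278 and 0.274). Adam17 also missed the threshold without library 3, at 0.0518. Mmp9 had 92, 94 and 43 counts (adjusted p = 0.00546, chi-square test; 0.753 without library 3). Mmp14, the protease described as cutting Sema4d in tumour cells, had 5, 0 and 0 counts, and Adamts4 had none. The edgeR and DESeq2 tests set each library against the other 2, with 1 library in an arm. They cannot decide which family or partner genes differ.

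**Figure D4:**
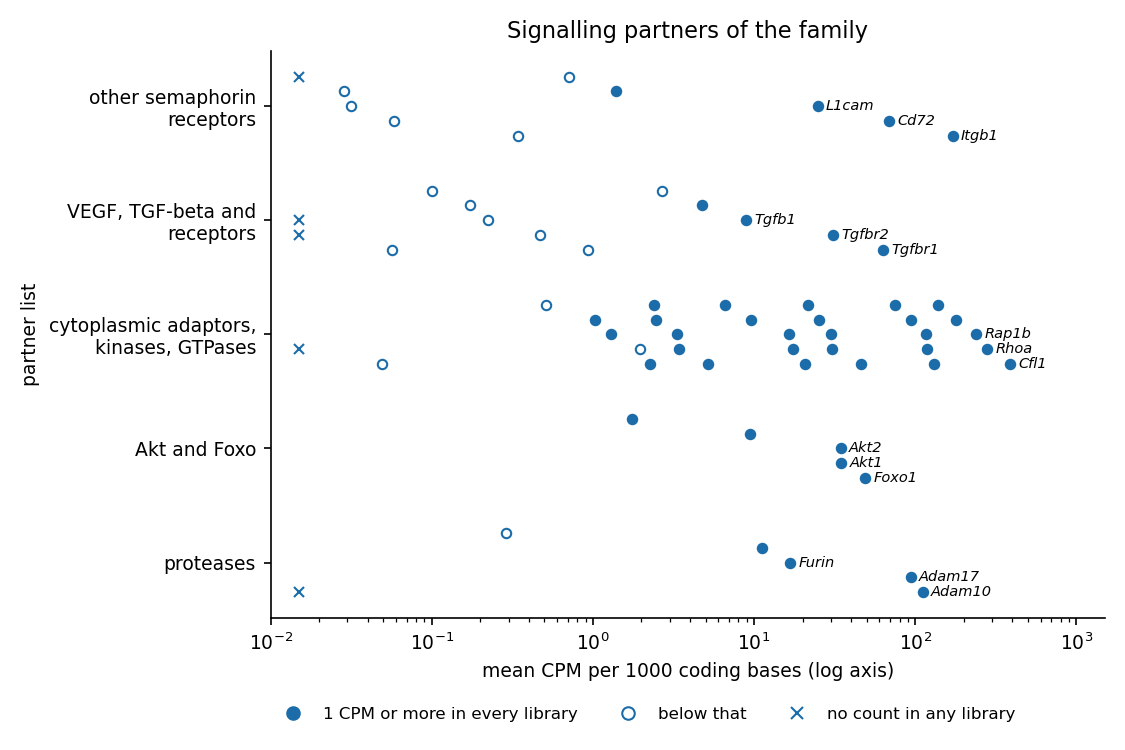
Mean level over the 3 libraries of the reported genes in the 5 partner lists, in CPM per 1000 coding bases on a log axis. Filled dots are genes at 1 CPM or more in every library, open dots genes below that, and crosses genes with no count in any library; the highest 3 shown of each list are named. Cfl1, Rhoa and Rap1b are highest, at 388, 279 and 238, Itgb1 and Adam10 lead their lists at 171 and 111, and no VEGF ligand or receptor exceeds 2.67.

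The 5 genes whose level was most like that of Nrp1 over the 3 libraries, by Euclidean distance of log2(CPM + 1) among all genes with a coding length, were Rps6ka1, Dgka, Nlrc5, Tkt and Copa, at distances of 0.081, 0.089, 0.11, 0.12 and 0.13. Rps6ka1, a ribosomal S6 kinase, had 2097, 2135 and 1605 counts. Dgka, a diacylglycerol kinase of T cells, had 2189, 1980 and 1694. Nlrc5 regulates MHC class I genes, Tkt is an enzyme of the pentose phosphate pathway, and Copa is a subunit of the coatomer of transport vesicles. All 5 were lowest in library 3, as was Nrp1. Choosing them by closeness to Nrp1 over the same libraries favours this, so it is no separate finding. Over only 3 libraries of 1 sample, this likeness describes level and spread.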

How the data were processed

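The authors deposited 1 table of unscaled gene counts (whole numbers) for each library. Per the notes deposited with the tables, these rest on mm10 and GENCODE M4. Which aligner and counter were used, and whether strand, duplicates or multiple matches were considered, is not given in the sources used here. Symbols, coordinates and coding lengths (longest coding transcript) came from GENCODE M21 of GRCm38, the same assembly. Of 22457 identifiers, 22195 matched a symbol, and the 262 others held 0.136% of counts. Detected means 1 CPM or more in every library. Differences between libraries were tested by chi-square with 2 degrees of freedom on library totals (scipy 1.17.1, Benjamini-Hochberg, threshold 0.05). The script was tested on simulated data. Alternatives were TMM and median-of-ratios scaling, other count minimums, leaving out each library, edgeR 4.0.16 quasi-likelihood and DESeq2 1.42.0 on the counts. The 10 genes, the gene lists and the tests were chosen with earlier results of these data known. Named genes were the 10, the rest of the family, and in each partner list the highest, the lowest and those that differed between libraries. Some genes enter list counts and sums but are not reported here.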

Additional observations from a re-analysis of the deposited data

How the results depend on the processing

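Without 1 library, the mean level ran from 1.53 to 3.03 CPM for Plxnb2 (2.32 over all 3) and from 1.91 to 3.22 CPM for Sema7a (2.58 over all 3). The number of the 10 genes detected was 9 at 0.5 CPM, 7 at 5 CPM and 8 to 9 without 1 library. The count over all genes, 2277 by the chi-square test, was 44 with edgeR, 2 with DESeq2 and 904 to 1466 without 1 library. Of the 10 genes, 3 were called, against 0 with edgeR, 0 with DESeq2, 0 to 3 without 1 library and 2 (Nrp1 and Sema4d) with either other scaling or other count minimum. Of the family and partner genes 20 were called, against 0 with edgeR, 0 with DESeq2 and 6 to 16 without 1 library. edgeR and DESeq2 set 1 library against the other 2 with 1 residual degree of freedom, so their counts of 0 say nothing of stability, and they add the spread between libraries, which the chi-square test leaves out. By CPM without length, 5 neighbour pairs were separate in place of 8. No paired analysis was possible because the libraries form 1 group. At these depths a gene under about 1 CPM cannot be told from one that is absent, and with 1 biological replicate nothing is known of the spread between animals.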
